A study of Homo sapiens with 24 samples.

Results

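The acute phase and complement genes described here are 39 genes for proteins that the liver releases into plasma or, for CD46, CD55 and CD59, places on the cell surface. They were taken from a fixed list by the accession of their probes. On the arrays, 51 probes carried an accession of a listed gene. A gene was kept when the scanner software called its probe well above background on all 3 arrays of at least 1 group, which held for 27 of the 39 genes and 35 of the 51 probes. Over the whole array, 18103 of 32614 named genes met the same condition. The data are 24 one-colour Agilent arrays of PLC/PRF/5 and SNU-449, established lines from human hepatocellular carcinoma (HCC), each with 4 groups of 3 independent cultures. After overnight serum starvation the cells were left untreated (control) or received for 16 h recombinant human TGFβ1 at 1 ng/mL, galunisertib at 10 µM, or both. Galunisertib, also named LY2157299, inhibits the kinase of the type I TGFβ receptor. Each line is a tumour line grown without the other cells of a liver, and no cytokine of the acute phase was added.

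In the acute phase response, hepatocytes change their output of plasma proteins after injury or infection. IL-6 and related cytokines act through STAT3, and IL-1 acts through NF-κB and C/EBP factors. Complement is a protease cascade of plasma in which C1 and the lectin proteins lead to the cleavage of C3 and C5, and the terminal components then build the membrane attack complex. Plasma inhibitors such as SERPING1 and CFI, and membrane inhibitors such as CD46, CD55 and CD59, restrain the cascade. TGFβ, which signals through SMAD factors, is known to alter hepatocyte gene expression and to lower many liver-specific genes.

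Values are log2 levels, meaning the log2 of the background-subtracted intensity of a probe over the 75th percentile of its array. They can be compared between arrays for 1 gene and are not set against the level of another gene. A value below 5.70% of the 75th percentile, a log2 level of -4.13, was raised to that floor, so values at the floor have no order. The 75th percentile lay between 145 and 262 intensity units, lowest in the first PLC/PRF/5 control, and 41.6% to 49.6% of the probes were well above background. The mean correlation of an array with the other arrays of its group was lowest for galunisertib in SNU-449, at 0.976 to 0.978. Of 11 hepatocyte markers, 10 were well above background on all 12 arrays of PLC/PRF/5 and 6 on those of SNU-449, where APOB, HNF4A, TF and TAT were above it on none. Of 10 mesenchymal markers, 5 and 8 were above background on all 12 arrays of PLC/PRF/5 and SNU-449. The endothelial markers PECAM1, KDR and TEK were above it on no array. As a check of the treatment, the known TGFβ targets SMAD7 and TGFBI rose with TGFβ by log2 differences of 0.65 and 1.58 in SNU-449 and of 0.80 and 0.73 in PLC/PRF/5, and both fell in each line when galunisertib was added to TGFβ (limma, adjusted p below 0.05). They come from a list of 5 targets. With TGFβ added to galunisertib, 4 of the 5 were still called higher in SNU-449 (background 1.85%), with a median log2 difference of 1.40. That median was 1.39 for TGFβ against control there. In PLC/PRF/5, 0 of the 4 tested were called with TGFβ added to galunisertib (background 8.31%), with a median of 0.01.

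Among the genes that did not pass the background condition were the best known reactants of the acute phase. CRP, the C-reactive protein, SAA1, an inducible serum amyloid A, LBP, which binds bacterial lipopolysaccharide, and LCN2, which binds bacterial siderophores, passed the background call on none of the 24 arrays. The same held for SERPINC1 (antithrombin), C6 and C9 of the membrane attack complex, MBL2 of the lectin pathway, and C4BPB. The other 3 genes were above background on a few arrays. SAA2 was above it in the third PLC/PRF/5 culture with TGFβ and galunisertib, at a log2 level of -3.72. CFB, the protease of the alternative pathway, passed on 1 control array and 1 array with both agents in PLC/PRF/5, and C4BPA passed on 2 control arrays of PLC/PRF/5 and 1 galunisertib array of SNU-449. These 12 genes entered no test.

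Untreated PLC/PRF/5 and untreated SNU-449 cells differed in many of these genes, in both directions. In the fit over all 24 arrays, 24 of the 27 genes kept had a Benjamini-Hochberg adjusted p below 0.05 (limma), beside 68.4% of all genes tested. PLC/PRF/5 had the higher level in 19 (background 34.1%) and SNU-449 in 5 (background 34.4%). Many of these genes passed the background condition only through the line in which they are high, so this count supports nothing about the list. For 9 of the 27, SERPIND1, A2M, ITIH2, ITIH3, SAA4, ORM2, C8A, C8B and HPX, no array of SNU-449 was above background, and ITIH1 was so on 1 SNU-449 array. For CD55, no array of PLC/PRF/5 was. Of the 14 members well above background on all 24 arrays, 11 were called in a fit restricted to such genes, beside 69.7% of 12902 genes, with PLC/PRF/5 above SNU-449 in 7 and below it in 4. In these bulk samples, fewer cells that use a gene and less RNA per cell cannot be told apart.

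SERPINA1, α1-antitrypsin and the main inhibitor of neutrophil elastase in plasma, had a wide gap that was measured in both lines. Its log2 levels were 9.26, 8.63 and 8.44 in the PLC/PRF/5 controls and -3.09, -2.90 and -3.02 in the SNU-449 controls, a difference of 11.78 (SE 0.21, limma, adjusted p = 2.8e-20). A2M, the broad protease trap α2-macroglobulin, stood at 6.27, 6.34 and 6.48 in PLC/PRF/5 and at the floor in SNU-449, a gap of at least 1439-fold (adjusted p = 3.9e-25, limma). Such a bound sets the dim group, array by array, to its own signal or to the weakest signal that passed the background call, whichever is higher. That weakest signal is the array's own and can lie under the common floor. Among the heavy chains that attach to hyaluronan as parts of the inter-α-inhibitors, ITIH2 was at 1.81, 1.80 and 1.74 in PLC/PRF/5, at least 60.2-fold above SNU-449. ITIH1, at 1.20, 0.87 and 1.01, was at least 35.5-fold higher. ITIH3 was dimmer in PLC/PRF/5 (-2.21, -2.57 and -2.41) and at least 3.32-fold higher there than in SNU-449. SERPIND1, heparin cofactor II and an inhibitor of thrombin, was at 0.21, 0.02 and 0.44 and at least 20.4-fold higher. For SERPINA1 the control arrays of the lines did not overlap. In the other members of this paragraph the SNU-449 controls lay at or near the floor, so their lack of overlap follows from the background condition. The p-value of A2M, like that of CD55 below, comes from a fit in which the dim line lay at the floor on every array, without spread.

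SAA4, the serum amyloid A protein that the liver makes without induction, was at 2.21, 2.12 and 2.22 in the PLC/PRF/5 controls and at least 79.5-fold higher than in SNU-449. SERPING1, the C1 inhibitor, was measured in both lines, at 2.87, 2.84 and 2.61 in PLC/PRF/5 and -2.68, -2.30 and -3.07 in SNU-449 (log2 difference 5.46, SE 0.22, adjusted p = 1.6e-14, limma). C8A and C8B, subunits of the membrane attack complex, were at 0.39, 0.34 and 0.45 and at 0.55, 0.30 and 0.45 in PLC/PRF/5, at least 23-fold and 23.6-fold above SNU-449. For SERPING1 every PLC/PRF/5 control lay above every SNU-449 control. The SNU-449 controls of SAA4, C8A and C8B were at the floor, so their order follows from the background condition. Further members higher in PLC/PRF/5 were CP, the copper carrier ceruloplasmin, by 4.11, and C3, at the centre of the cascade, by 4.03 on the log2 scale. ORM1 and ORM2, the orosomucoids, differed by 3.41 and by at least 9.97-fold. The probes of this near-identical pair may share signal, so their values are uncertain, and the same holds for HP and its close relative HPR.

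CD55, which speeds the decay of C3 convertases, ran the other way. Its SNU-449 controls were at 1.57, 0.58 and 1.22, its PLC/PRF/5 controls were at the floor, and it was at least 34.2-fold higher in SNU-449 (adjusted p = 3.5e-15, limma). CD59, which blocks the membrane attack complex, was at -0.74, -0.57 and -0.32 in PLC/PRF/5 and 1.54, 1.32 and 1.58 in SNU-449 (log2 difference -2.02, SE 0.14, adjusted p = 9.3e-11, limma). SERPINA3, α1-antichymotrypsin, was the exception among the antiproteases, with -0.93, -0.87 and -0.93 in PLC/PRF/5 and 0.17, 0.32 and 0.46 in SNU-449 (log2 difference -1.23, SE 0.10, adjusted p = 1.8e-09, limma). Its other 2 probes differed by -1.64 (adjusted p = 2.29e-04, limma over all probes) and by -0.34, which was not called (adjusted p = 0.355). C1R and C1S, the proteases of the first component, were also higher in SNU-449, by log2 differences of -0.79 and -0.54 (adjusted p = 7.1e-06 and 9.7e-05, limma), but a second probe of C1R was not called (log2 difference -0.30, adjusted p = 0.178, limma over all probes). Of the 27 members, CFI, CD46 and HAMP (hepcidin) were not called between the lines, with 95% intervals of the difference of -0.14 to 0.56, -0.30 to 0.05 and -0.05 to 0.67. HPX and C2 were called although their control arrays overlapped, and C2 was not called without the first PLC/PRF/5 control (log2 difference 0.56, adjusted p = 0.109, limma).

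**Figure D1:**
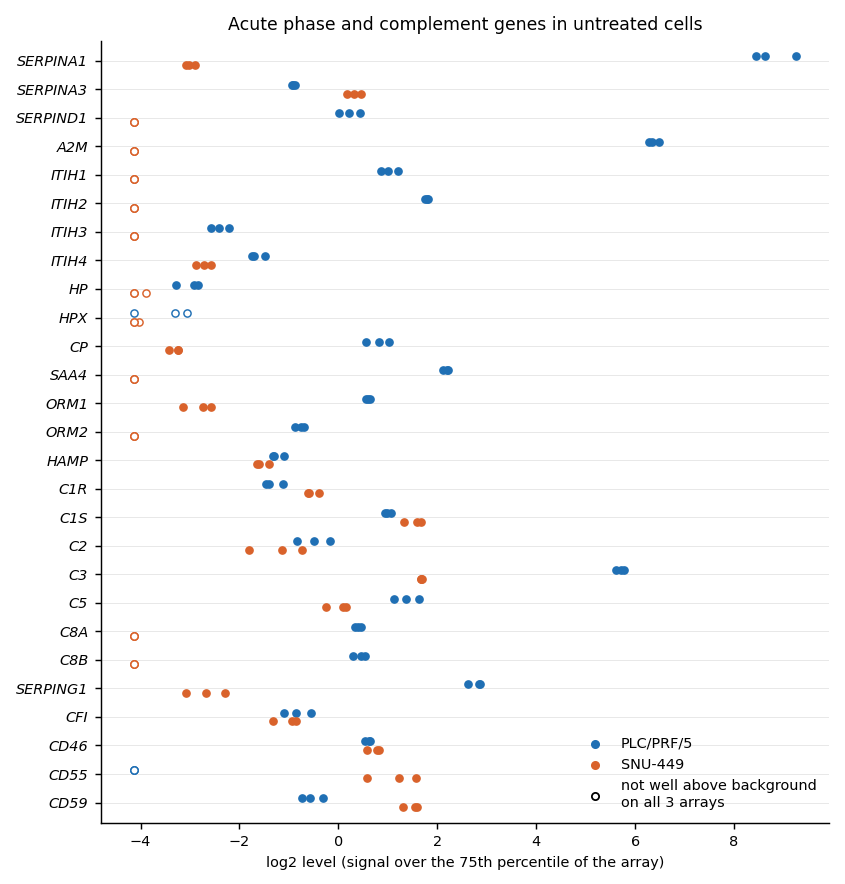
Log2 level (horizontal axis, log2 of the signal over the 75th percentile of the array) of the 27 genes kept (vertical axis), 1 point for each of the 3 control arrays of PLC/PRF/5 (blue) and SNU-449 (orange). Open points mark groups not well above background on all 3 arrays, and -4.13 is the floor. SERPINA1, A2M, C3 and SERPING1 lie far to the right in PLC/PRF/5, and CD55, CD59 and SERPINA3 lie to the right in SNU-449.

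The treatments were compared within each line over its 12 arrays. In SNU-449, 16 members were tested, 15 of them above background on all 12 arrays and CP through the control arrays. For PLC/PRF/5 the number was 26, 24 of them above background on all 12 arrays, ITIH3 through the control and TGFβ arrays and HPX through the treated arrays. There were 8 treatment comparisons, and the members called in each are given below beside the share of all genes. The comparisons share arrays, since the control arrays enter both single treatments and the TGFβ arrays enter both the TGFβ comparison and the one in which galunisertib was added. Opposite signs in such a pair are therefore partly built in, and the values are given side by side only. On every slide a given group had 1 fixed position, with all TGFβ arrays in the second row. Arrays with galunisertib lay in column 2 for PLC/PRF/5 and column 4 for SNU-449, and those without it in columns 1 and 3. Slide position therefore cannot be told apart from TGFβ, galunisertib or line.

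TGFβ alone changed a few members in each line, in both directions. In SNU-449, 6 of 16 were called, beside 10.2% of all genes, with CD59 and SERPINA3 higher (background 5.57%) and CP, CFI, CD46 and C1R lower (background 4.66%). The PLC/PRF/5 calls were 5 of 26, beside 13.4% (6.26% higher and 7.09% lower), with SERPINA3 and CD59 higher and SAA4, C5 and CP lower. The median log2 difference was -0.25 over the 16 members and 0.01 over all genes in SNU-449, and 0.06 and -0.03 in PLC/PRF/5. Under the limits that the study applied, a fold change above 2 with an unadjusted P below 0.001, the calls were 0 in SNU-449 (background 2.32%) and 1 in PLC/PRF/5 (background 1.11%), namely SERPINA3. With the replicate number, which is also the slide, as a block, 1 rose and 3 fell in SNU-449, where CP and SERPINA3 were lost, and 3 rose and 2 fell in PLC/PRF/5, where CP was lost and SERPIND1 gained (log2 difference 0.51, adjusted p = 0.0239, limma). With replicate 1, 2 or 3 left out of every group, 0, 1 and 0 SNU-449 members were called, and 2 PLC/PRF/5 members in each case. With the arrays not scaled, 2 rose and 0 fell in SNU-449 and 1 rose and 0 fell in PLC/PRF/5, and with the 75th percentile taken over bright probes alone the counts were 1 and 4, and 3 and 2.

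Galunisertib alone changed 3 members in SNU-449 and 4 in PLC/PRF/5. In SNU-449, CFI and C1S rose and SERPINA3 fell, 3 of 16 beside 7.15% of all genes (5.13% higher and 2.02% lower). Among the PLC/PRF/5 members, ITIH3, SERPIND1, ITIH1 and C8B fell and no member rose, 4 of 26 beside 5.28% (3.56% higher and 1.71% lower), of which ITIH3 and SERPIND1 also passed the limits of the study (background 0.350%). With 1 replicate number left out of every group, between 0 and 1 SNU-449 member and 0 PLC/PRF/5 members were called, and with array median scaling or none, 0 rose and 1 fell in SNU-449. The summed signal of the 11 hepatocyte markers, as log2, ran from 8.28 to 8.46 over the PLC/PRF/5 controls and from 7.86 to 8.03 with galunisertib, while that of the 10 mesenchymal markers ran from 7.39 to 7.61 and from 7.73 to 7.89. In SNU-449 the mesenchymal sum ran from 9.28 to 9.46 over the controls and from 8.57 to 9.19 with galunisertib, and that of 5 cholangiocyte markers from 7.99 to 8.39 and from 6.24 to 7.03. The hepatocyte sum there ran from 4.19 to 4.44 and from 4.10 to 4.45. The sums add signals before log2, so the brightest probe weighs most. In the SNU-449 controls KRT7 averaged 8.24, SOX9 1.56 and the other cholangiocyte markers -4.13, so their sum is nearly that of KRT7 alone. The part of these sums in the results was not tested.

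Galunisertib added to TGFβ gave the most calls. In SNU-449, 8 of 16 members were called, 6 higher and 2 lower, beside 16.9% of all genes (9.61% higher and 7.27% lower). In PLC/PRF/5, 16 of 26 were called, 6 higher and 10 lower, beside 38.9% (25.6% higher and 13.3% lower). The median log2 difference was 0.36 for the members and 0.01 for all genes in SNU-449, and -0.10 and 0.06 in PLC/PRF/5. CFI in SNU-449 (background 3.80%) and 6 members in PLC/PRF/5 (background 3.13%), SAA4, CP, C5, CFI, ITIH3 and SERPIND1, passed the limits of the study. CFI rose, and SERPINA3 and CD59 fell, in both lines. In SNU-449, between 1 and 3 members were called with 1 replicate number left out, and 1 rose and 1 fell with array median scaling, against 1 and 2 without scaling. For PLC/PRF/5 between 10 and 13 were called with 1 replicate number left out.

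When TGFβ was added to cells that also received galunisertib, 1 member was called in each line, SERPINA3 in SNU-449 (background 1.85%) and C8B in PLC/PRF/5 (background 8.31%). The interaction, which asks whether the effect of galunisertib differed with and without TGFβ, was called for 6 members in PLC/PRF/5 (background 8.70%, 4.41% positive and 4.29% negative) and for 0 of 16 in SNU-449 (background 2.43%, limma). In SNU-449, 4 of the 16 had an unadjusted p below 0.05 (limma), beside 2826 of the 16225 genes tested. These calls in PLC/PRF/5 were positive for SAA4 (1.26), C5 (1.15), CP (0.90) and A2M (0.60) and negative for SERPINA3 (-0.94) and C3 (-0.51), with adjusted p of 0.00121, 0.0137, 0.0177, 0.0493, 0.00159 and 0.033 (limma). With 1 replicate number left out between 0 and 2 members were called, and with array median scaling 1 was, with a positive sign.

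**Figure D2:**
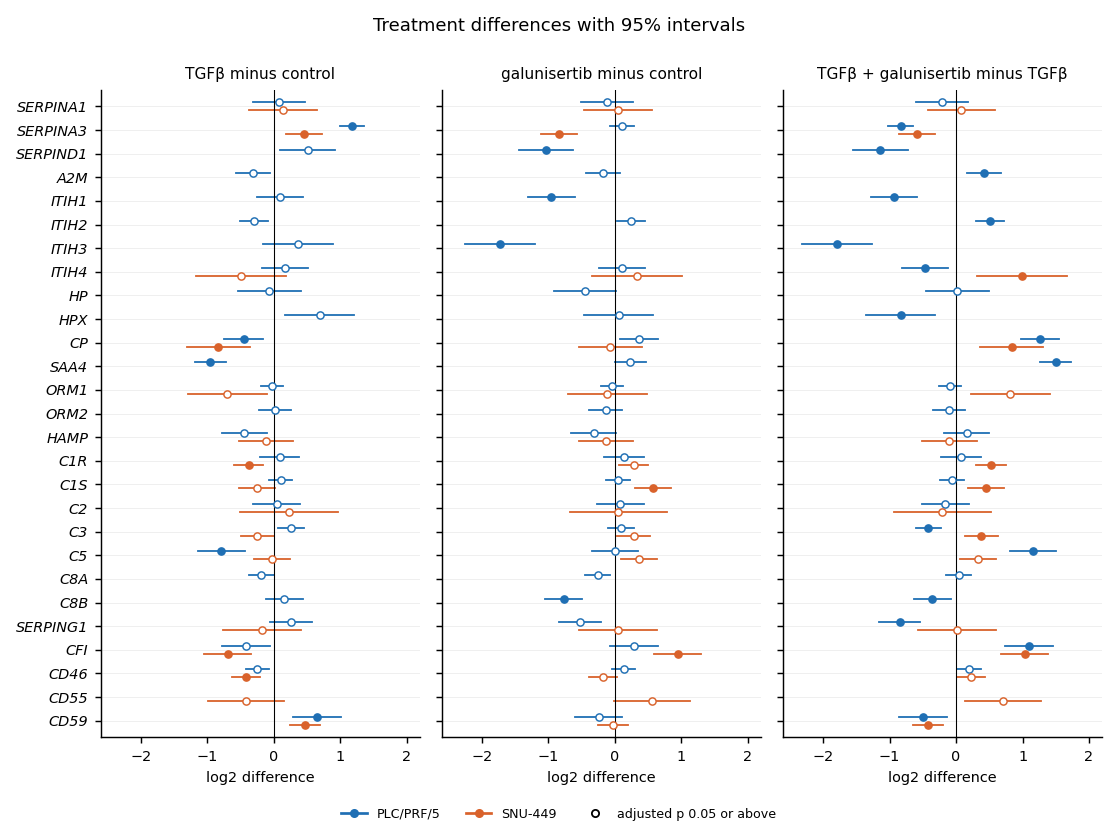
Log2 difference (horizontal axis) of each member (vertical axis) for TGFβ minus control, galunisertib minus control, and TGFβ with galunisertib minus TGFβ, in PLC/PRF/5 (blue) and SNU-449 (orange). Bars are 95% intervals from limma, filled points have an adjusted p below 0.05, and members not tested in a line have no point. The right panel has the most filled points, 16 in PLC/PRF/5 and 8 in SNU-449.

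SERPINA3 inhibits cathepsin G and chymase and is induced in the acute phase. In PLC/PRF/5 its log2 levels were -0.93, -0.87 and -0.93 in control cells, 0.21, 0.32 and 0.25 with TGFβ, -0.76, -0.86 and -0.80 with galunisertib and -0.46, -0.75 and -0.52 with both. Every TGFβ array lay above every other PLC/PRF/5 array, and the arrays with both agents lay above the controls. TGFβ raised it (log2 difference 1.17, SE 0.08, adjusted p = 1.3e-05, limma), and galunisertib added to TGFβ lowered it (log2 difference -0.83, SE 0.08, adjusted p = 4.9e-05, limma). In SNU-449 the levels were 0.17, 0.32 and 0.46 in control cells, 0.68, 0.76 and 0.87 with TGFβ, -0.61, -0.44 and -0.51 with galunisertib and 0.17, 0.40 and -0.03 with both. The lowest levels in this line were those with galunisertib alone. Galunisertib lowered it from control (log2 difference -0.84, SE 0.12, adjusted p = 0.00373, limma) and from TGFβ (log2 difference -0.59, SE 0.12, adjusted p = 0.00797, limma). TGFβ raised it from control (log2 difference 0.45, SE 0.12, adjusted p = 0.0416, limma) and from galunisertib (log2 difference 0.70, SE 0.12, adjusted p = 0.0206, limma). With the replicate block, the SNU-449 rise over control was 0.45 with an adjusted p of 0.0508 (limma). The other 2 probes of SERPINA3 had the same sign in each of these comparisons. Over all probes, neither was called in SNU-449 with TGFβ (adjusted p = 0.471 and 0.234, limma) or with galunisertib added to TGFβ (0.413 and 0.324). Only the first was also not called there with galunisertib alone or with TGFβ added to galunisertib (adjusted p = 0.275 and 0.369, limma). The same held with TGFβ in PLC/PRF/5 (first probe adjusted p = 0.126, limma). Both were called with galunisertib added to TGFβ in PLC/PRF/5.

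CFI, complement factor I, cleaves C3b and C4b and so ends convertase activity. In SNU-449 it was at -1.33, -0.86 and -0.94 in control cells, -1.84, -1.72 and -1.65 with TGFβ, -0.16, -0.36 and 0.22 with galunisertib and -0.63, -0.81 and -0.67 with both. The arrays with TGFβ alone lay below all others, and those with galunisertib alone were the highest. TGFβ lowered CFI (log2 difference -0.70, SE 0.16, adjusted p = 0.0203, limma), galunisertib raised it over control (log2 difference 0.94, SE 0.16, adjusted p = 0.00821, limma), and its addition to TGFβ raised it (log2 difference 1.03, SE 0.16, adjusted p = 0.00151, limma). Its PLC/PRF/5 levels were -1.10, -0.85 and -0.56 in control cells, -1.21, -1.37 and -1.17 with TGFβ, -0.63, -0.67 and -0.35 with galunisertib and 0.06, -0.45 and -0.06 with both. There only the addition to TGFβ was called (log2 difference 1.10, SE 0.16, adjusted p = 5.1e-04, limma). A second probe of CFI gave smaller differences in SNU-449, -0.41 with TGFβ, 0.65 with galunisertib and 0.37 with galunisertib added to TGFβ, none called over all probes (adjusted p = 0.182, 0.056 and 0.177, limma). Its rise with galunisertib added to TGFβ in PLC/PRF/5 was 0.71 (adjusted p = 0.014, limma).

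CD59 is the membrane inhibitor that keeps C9 from joining the attack complex. Its SNU-449 levels were 1.54, 1.32 and 1.58 in control cells, 1.91, 1.93 and 2.02 with TGFβ, 1.47, 1.33 and 1.54 with galunisertib and 1.58, 1.40 and 1.62 with both. Its PLC/PRF/5 levels were -0.74, -0.57 and -0.32 in control cells, 0.21, -0.03 and 0.14 with TGFβ, -0.71, -1.16 and -0.49 with galunisertib and -0.30, -0.45 and -0.44 with both. In each line the TGFβ arrays lay above all other arrays of the line. TGFβ raised CD59 in SNU-449 (log2 difference 0.47, SE 0.10, adjusted p = 0.0147, limma) and in PLC/PRF/5 (log2 difference 0.65, SE 0.16, adjusted p = 0.0249, limma). Galunisertib added to TGFβ lowered it in SNU-449 (log2 difference -0.42, SE 0.10, adjusted p = 0.0178, limma) and in PLC/PRF/5 (log2 difference -0.50, SE 0.16, adjusted p = 0.0309, limma). Galunisertib alone was not called in either line, with intervals of -0.26 to 0.19 and -0.61 to 0.11. Without the first PLC/PRF/5 control, the rise with TGFβ in that line was 0.55 with an adjusted p of 0.0835 (limma).

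CD46, the membrane cofactor with which CFI cleaves its substrates, fell with TGFβ in SNU-449. Its levels were 0.82, 0.58 and 0.78 in control cells and 0.42, 0.30 and 0.21 with TGFβ (log2 difference -0.42, SE 0.09, adjusted p = 0.0197, limma). The PLC/PRF/5 levels were 0.64, 0.62 and 0.54 in control cells and 0.35, 0.26 and 0.45 with TGFβ, which was not called (log2 difference -0.25, SE 0.08, adjusted p = 0.0733, limma). CD55 in SNU-449 was not called in any treatment comparison. Its arrays there ran from 0.19, with TGFβ, to 1.76, with galunisertib.

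The promoters of the members called under treatment in both lines are given with the letters that factors of the acute phase and of TGFβ signalling are known to bind. Of these 6 members, 4 had an entry in the RefSeq promoter table, and the others are CP and C3. Each line gives 300 bases of GRCh38.p14, most of them before a RefSeq start and the last ones after it, 5′ to 3′ on the strand of the gene. Capitals mark matches, on either strand, of TTCNNNGAA (a STAT site), TTNNGNAAT (a C/EBP site), CAGAC (a SMAD element) or an NF-κB motif, which may overlap. The windows are chr14:94612141-94612440 on the plus strand for SERPINA3 and, on the minus strand, chr4:109801950-109802249 for CFI, chr11:33736430-33736729 for CD59, as the first of 4 listed starts, and chr3:52830623-52830922 for ITIH4.
SERPINA3: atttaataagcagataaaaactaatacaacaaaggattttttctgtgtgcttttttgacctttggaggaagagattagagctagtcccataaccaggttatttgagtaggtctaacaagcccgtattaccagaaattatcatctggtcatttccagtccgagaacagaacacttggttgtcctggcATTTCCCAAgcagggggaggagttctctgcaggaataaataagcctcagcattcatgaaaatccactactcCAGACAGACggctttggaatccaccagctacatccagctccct
CFI: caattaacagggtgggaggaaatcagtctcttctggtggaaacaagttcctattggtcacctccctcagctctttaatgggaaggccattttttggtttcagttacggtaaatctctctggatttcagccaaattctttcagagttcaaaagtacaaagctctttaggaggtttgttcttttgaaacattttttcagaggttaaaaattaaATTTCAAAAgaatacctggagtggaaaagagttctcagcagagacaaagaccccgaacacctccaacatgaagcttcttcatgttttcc
CD59: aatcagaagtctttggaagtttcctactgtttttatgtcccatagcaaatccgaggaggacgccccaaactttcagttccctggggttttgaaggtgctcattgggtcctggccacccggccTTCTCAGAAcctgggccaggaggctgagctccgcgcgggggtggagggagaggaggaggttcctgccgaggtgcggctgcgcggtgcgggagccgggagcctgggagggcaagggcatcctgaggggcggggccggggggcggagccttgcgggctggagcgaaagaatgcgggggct
ITIH4: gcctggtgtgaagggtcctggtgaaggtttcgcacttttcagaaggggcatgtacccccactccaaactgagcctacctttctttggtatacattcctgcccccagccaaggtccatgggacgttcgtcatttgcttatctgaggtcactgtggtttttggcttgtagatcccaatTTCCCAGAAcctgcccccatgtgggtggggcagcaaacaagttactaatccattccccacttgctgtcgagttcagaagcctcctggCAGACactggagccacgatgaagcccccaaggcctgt
The SERPINA3 window held 1 C/EBP match, which starts at base 187 of the window, and 2 overlapping SMAD matches from base 258. The CFI window held 1 C/EBP match at base 212. The CD59 window held 1 STAT match at base 123, and the ITIH4 window 1 STAT match at base 177 and 1 SMAD match at base 264. Of 35116 promoters in the table, 7.66% held the STAT letters, 11% the C/EBP letters, 1.91% the NF-κB motif and 45.3% the SMAD letters. A match is a description of the sequence and not a measured site.

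**Figure D3:**
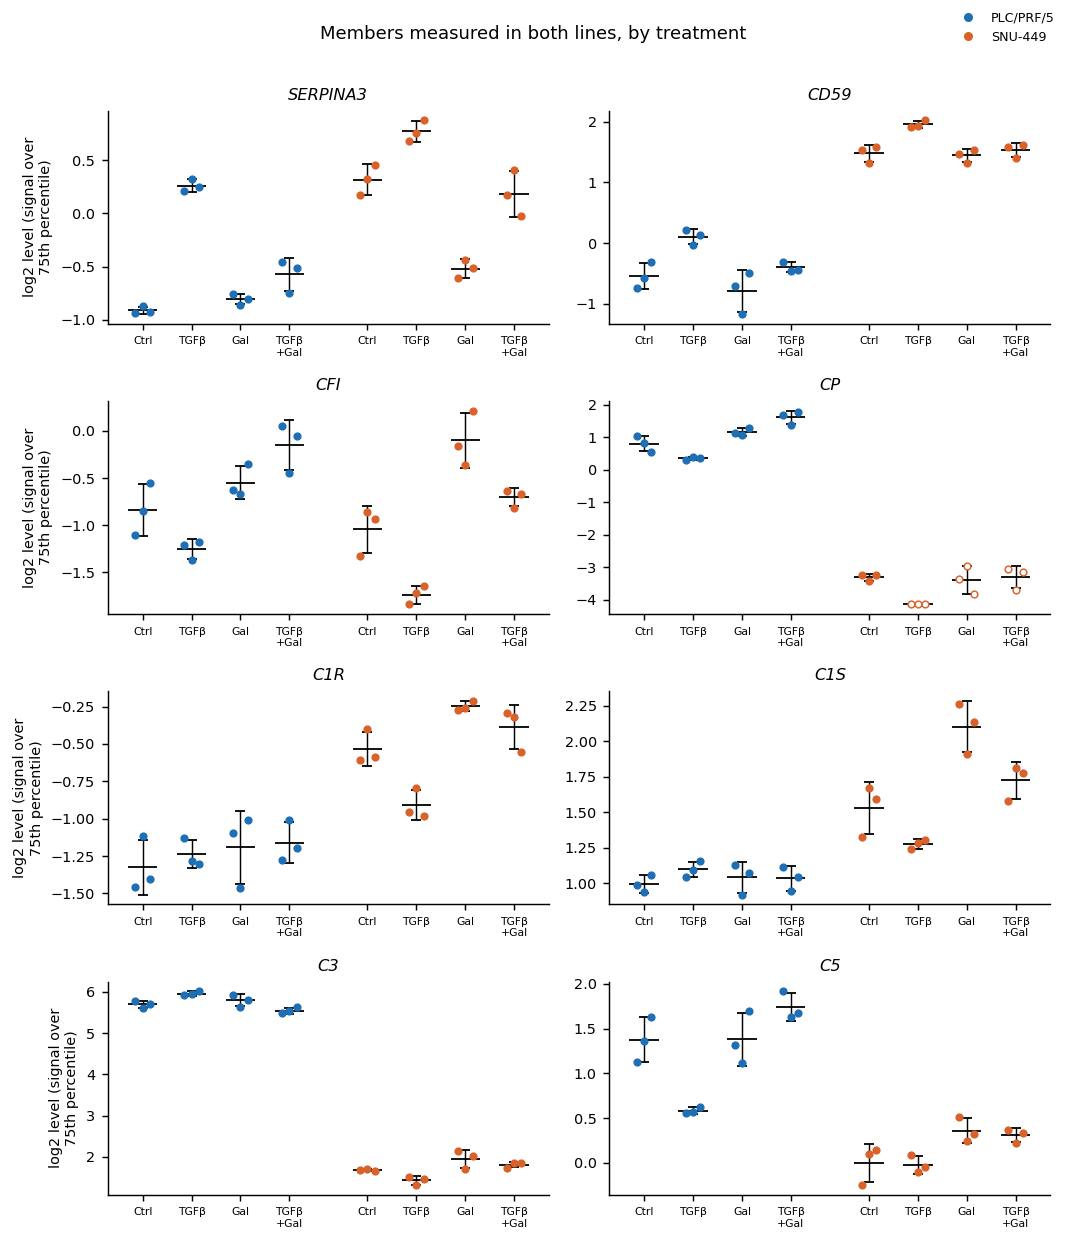
Log2 level (vertical axis, log2 of the signal over the 75th percentile of the array) of 8 members in the 4 groups of PLC/PRF/5 (blue) and SNU-449 (orange): control (Ctrl), TGFβ, galunisertib (Gal) and both. Points are the 3 arrays, lines the mean with SD, and open points mark groups not well above background on all 3 arrays. The vertical scales differ between panels. The TGFβ arrays are the highest of their line for SERPINA3 and CD59 and the lowest for CFI.

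CP, ceruloplasmin, oxidises iron and carries copper. It was, in PLC/PRF/5, at 1.03, 0.82 and 0.57 in control cells, 0.30, 0.40 and 0.36 with TGFβ, 1.12, 1.09 and 1.29 with galunisertib and 1.68, 1.38 and 1.79 with both. The TGFβ arrays were the lowest and the arrays with both agents the highest, without overlap with any other group. Galunisertib added to TGFβ raised CP (log2 difference 1.26, SE 0.13, adjusted p = 6.4e-05, limma), and its second probe rose by 1.27 (adjusted p = 0.035 over all probes, limma). The fall with TGFβ (log2 difference -0.45, SE 0.13, adjusted p = 0.0457, limma) had adjusted p of 0.0656 with the replicate block and 0.141 without the first control (limma). In SNU-449, CP was at -3.24, -3.43 and -3.24 in control cells, while no TGFβ array passed the background call, so it was at least 1.92-fold lower with TGFβ (adjusted p = 0.0342, limma, and 0.0622 with the replicate block). The fitted log2 difference, -0.83, is smaller than this bound because the TGFβ arrays enter the fit at the common floor, while the limits of the arrays themselves average -4.24. With both agents it was at -3.06, -3.69 and -3.13, above background on 2 of 3 arrays and at least 1.93-fold higher than with TGFβ (adjusted p = 0.023, limma).

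SAA4 was called in PLC/PRF/5, the line that expresses it. Its levels were 2.21, 2.12 and 2.22 in control cells, 1.24, 1.28 and 1.16 with TGFβ, 2.50, 2.27 and 2.48 with galunisertib and 2.92, 2.51 and 2.75 with both. All TGFβ arrays lay well below the rest, and all galunisertib arrays lay above the controls. TGFβ lowered SAA4 (log2 difference -0.96, SE 0.11, adjusted p = 2.8e-04, limma), and galunisertib added to TGFβ raised it (log2 difference 1.50, SE 0.11, adjusted p = 4.9e-06, limma). Galunisertib alone was not called (log2 difference 0.23, SE 0.11, adjusted p = 0.217, limma).

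HPX, haemopexin, binds free haem. It stood in PLC/PRF/5 near background, at -4.13, -3.06 and -3.30 in control cells, -2.87, -2.68 and -2.87 with TGFβ, -3.54, -3.12 and -3.67 with galunisertib and -3.66, -3.71 and -3.55 with both, where the first control is at the floor. It was lower with both agents than with TGFβ (log2 difference -0.83, SE 0.24, adjusted p = 0.0173, limma), and the rise with TGFβ was not called (log2 difference 0.69, SE 0.24, adjusted p = 0.0818, limma). The remaining carriers kept, HP, ORM1, ORM2 and HAMP, were not called in any treatment comparison.

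SERPIND1, ITIH1, ITIH3 and C8B fell with galunisertib in PLC/PRF/5, and none of these is above background in SNU-449 beyond 1 array of ITIH1. SERPIND1 was at 0.21, 0.02 and 0.44 in control cells, 0.88, 0.54 and 0.77 with TGFβ, -0.85, -1.08 and -0.52 with galunisertib and -0.13, -0.73 and -0.36 with both. All arrays with galunisertib lay below all arrays without it. The change was called against control (log2 difference -1.04, SE 0.19, adjusted p = 0.0126, limma) and against TGFβ (log2 difference -1.14, SE 0.19, adjusted p = 9.0e-04, limma). ITIH1, a heavy chain of the inter-α-inhibitor, was at 1.20, 0.87 and 1.01 in control cells, 1.45, 0.80 and 1.10 with TGFβ, 0.15, -0.09 and 0.15 with galunisertib and 0.28, 0.02 and 0.25 with both. Its arrays split in the same way, with a fall against control (log2 difference -0.95, SE 0.16, adjusted p = 0.00855, limma) and against TGFβ (log2 difference -0.94, SE 0.16, adjusted p = 0.00106, limma).

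ITIH3, another heavy chain, was at -2.21, -2.57 and -2.41 in control cells and -1.64, -2.31 and -2.17 with TGFβ, and at the floor on all 3 galunisertib arrays. Galunisertib lowered it at least 3.03-fold (adjusted p = 0.00381, limma). With both agents 1 of 3 arrays was above background, at -4.13, -4.13 and -3.23, and the fit, in which the other arrays of that group enter at the floor, gave a difference from TGFβ alone of -1.80 (adjusted p = 2.7e-04, limma). C8B, a subunit of the membrane attack complex, was at 0.55, 0.30 and 0.45 in control cells, 0.84, 0.43 and 0.50 with TGFβ, -0.39, -0.37 and -0.25 with galunisertib and 0.44, 0.09 and 0.17 with both. The galunisertib arrays alone stood below all others. The fall from control (log2 difference -0.77, SE 0.13, adjusted p = 0.00848, limma) and the higher level when TGFβ was present with galunisertib (log2 difference 0.57, SE 0.13, adjusted p = 0.0276, limma) were called, and so was the smaller fall from TGFβ, whose groups overlapped (log2 difference -0.36, SE 0.13, adjusted p = 0.0453, limma). C8A, its partner, was not called in any treatment comparison.

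Of the other antiproteases in PLC/PRF/5, ITIH2, A2M and ITIH4 were called with galunisertib added to TGFβ, and A2M also in the interaction. ITIH2 was at 1.81, 1.80 and 1.74 in control cells, 1.53, 1.43 and 1.50 with TGFβ, 2.09, 1.97 and 2.01 with galunisertib and 2.13, 1.78 and 2.08 with both, and rose (log2 difference 0.51, SE 0.09, adjusted p = 0.00167, limma). It thus ran opposite to its relatives ITIH1 and ITIH3. A2M was at 6.27, 6.34 and 6.48 in control cells, 6.19, 5.88 and 6.08 with TGFβ, 6.18, 6.05 and 6.32 with galunisertib and 6.57, 6.27 and 6.56 with both, and rose (log2 difference 0.42, SE 0.12, adjusted p = 0.016, limma). ITIH4, an acute phase member of this family that IL-6 induces, was at -1.52, -1.45 and -1.47 with TGFβ and -2.14, -1.69 and -2.02 with both in PLC/PRF/5, a fall (log2 difference -0.47, SE 0.16, adjusted p = 0.0341, limma). In SNU-449 the same groups were at -2.79, -3.18 and -3.68 and -2.31, -1.70 and -2.67, a rise (log2 difference 0.99, SE 0.30, adjusted p = 0.0491, limma). That rise had an adjusted p of 0.0559 with the replicate block (limma). It was lost in 13 of 16 alternatives, among them the authors' values, the methods' t-test and each replicate number left out. SERPINA1 was not called in any treatment comparison, and its PLC/PRF/5 arrays lay between 8.44 and 9.26.

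**Figure D4:**
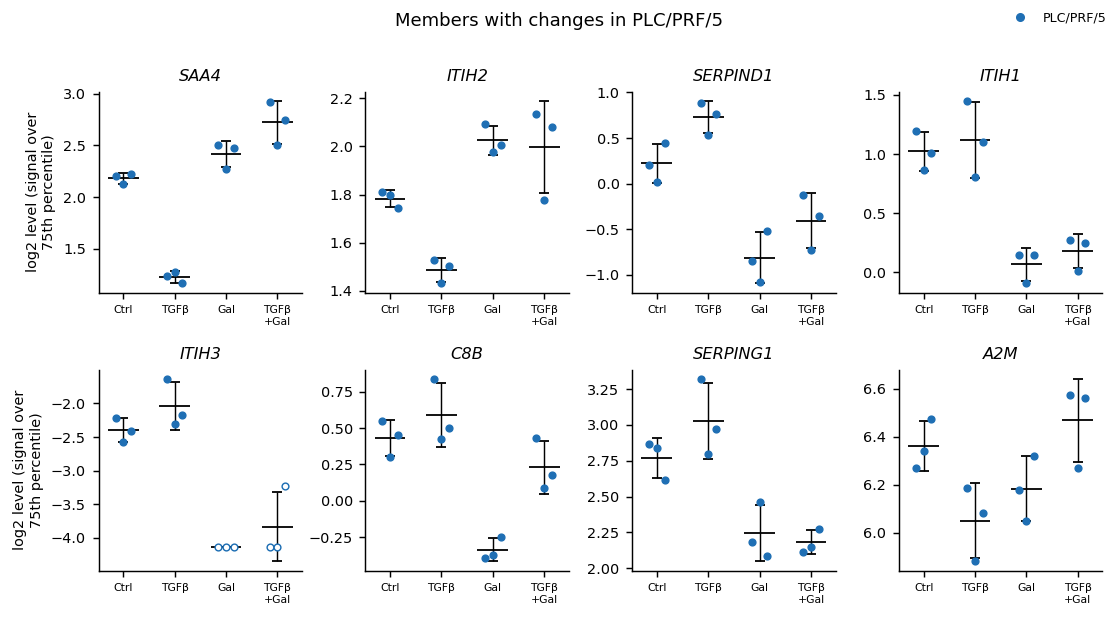
Log2 level (vertical axis, log2 of the signal over the 75th percentile of the array) of 8 members in the 4 groups of PLC/PRF/5: control (Ctrl), TGFβ, galunisertib (Gal) and both. Points are the 3 arrays, lines the mean with SD, open points mark groups not well above background on all 3 arrays, and the vertical scales differ between panels. SERPIND1, ITIH1 and ITIH3 are lower in both groups with galunisertib, while SAA4 is lowest with TGFβ.

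Among the complement components, C5, which starts the terminal pathway, was lowered by TGFβ in PLC/PRF/5. Its levels were 1.13, 1.36 and 1.63 in control cells, 0.56, 0.57 and 0.63 with TGFβ, 1.32, 1.12 and 1.70 with galunisertib and 1.92, 1.63 and 1.68 with both. The TGFβ arrays lay below all others. TGFβ lowered C5 (log2 difference -0.79, SE 0.16, adjusted p = 0.00877, limma), and galunisertib added to TGFβ raised it (log2 difference 1.16, SE 0.16, adjusted p = 3.3e-04, limma). In SNU-449, C5 was at -0.24, 0.10 and 0.14 in control cells and 0.09, -0.10 and -0.05 with TGFβ, which was not called (95% interval of the difference -0.29 to 0.25).

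C3 moved in opposite directions in the lines when galunisertib was added to TGFβ. In PLC/PRF/5 it went from 5.91, 5.94 and 6.02 with TGFβ to 5.48, 5.53 and 5.62 with both (log2 difference -0.42, SE 0.09, adjusted p = 0.00393, limma). In SNU-449 it went from 1.52, 1.32 and 1.45 to 1.73, 1.85 and 1.85 (log2 difference 0.38, SE 0.11, adjusted p = 0.0398, limma). The groups did not overlap in either line, and the difference between the lines was not tested for this comparison. With the replicate block the SNU-449 change had an adjusted p of 0.0518 (limma), and the second probe of C3 changed by 0.26 there (adjusted p = 0.19) and by -0.56 in PLC/PRF/5 (adjusted p = 0.002, limma over all probes). The SNU-449 call was lost in 10 of 16 alternatives, among them array median scaling, the authors' values and each replicate number left out. The PLC/PRF/5 call was lost in 3 of 16.

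C1R and C1S, whose products form the protease core of C1, were called under treatment in SNU-449 alone. C1R was at -0.61, -0.40 and -0.59 in SNU-449 control cells, -0.95, -0.79 and -0.98 with TGFβ, -0.27, -0.26 and -0.21 with galunisertib and -0.29, -0.32 and -0.55 with both. It was lower with TGFβ (log2 difference -0.38, SE 0.10, adjusted p = 0.0371, limma) and rose when galunisertib was added to TGFβ (log2 difference 0.52, SE 0.10, adjusted p = 0.00505, limma). A second probe of C1R changed by -0.13 and 0.56 in these comparisons, neither called over all probes (adjusted p = 0.81 and 0.13, limma). C1S was at 1.32, 1.67 and 1.59 in control cells, 1.24, 1.28 and 1.31 with TGFβ, 2.27, 1.91 and 2.14 with galunisertib and 1.58, 1.81 and 1.78 with both. It rose with galunisertib over control (log2 difference 0.57, SE 0.12, adjusted p = 0.0217, limma) and over TGFβ (log2 difference 0.45, SE 0.12, adjusted p = 0.0303, limma). For both genes all arrays with galunisertib lay above the arrays with TGFβ alone. The 95% intervals for galunisertib added to TGFβ in PLC/PRF/5 were -0.22 to 0.37 for C1R and -0.24 to 0.11 for C1S. C2, the protease of the classical convertase, was not called in any treatment comparison.

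SERPING1, which inactivates C1R and C1S, was at 2.87, 2.84 and 2.61 in PLC/PRF/5 control cells, 3.32, 2.80 and 2.97 with TGFβ, 2.18, 2.46 and 2.09 with galunisertib and 2.12, 2.15 and 2.28 with both. All arrays with galunisertib lay below all arrays without it. The fall was called when galunisertib was added to TGFβ (log2 difference -0.85, SE 0.14, adjusted p = 0.00102, limma) and not for galunisertib alone (log2 difference -0.53, SE 0.14, adjusted p = 0.0585, limma). The other probes of SERPING1 changed by -0.64 and -0.61 with the addition (adjusted p = 0.00876 and 0.14, limma over all probes). With galunisertib alone they changed by -0.14 and -0.65, neither called (adjusted p = 0.653 and 0.251, limma over all probes). In SNU-449 the probe used showed a difference of 0.01 for the addition to TGFβ, while a second probe rose by 0.77 (adjusted p = 0.03 over all probes, limma), so the probes disagree in that line.

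The difference between the lines was tested itself, over members of which some could be measured in 1 line only. The effect of galunisertib differed for 6 of 27 members (background 5.81%, 3.39% positive and 2.41% negative), 5 with a positive and 1 with a negative sign as SNU-449 minus PLC/PRF/5, against 1 and 1 without scaling. SERPINA3 fell in SNU-449 and changed by 0.11 in PLC/PRF/5, a difference of -0.94 (SE 0.14, adjusted p = 4.7e-04, limma). Its other probes changed with galunisertib by -0.578 and -0.963 in SNU-449 and by -0.295 and 0.856 in PLC/PRF/5. The size of this difference thus depends on the probe. C1S rose in SNU-449 and changed by 0.05 in PLC/PRF/5, a difference of 0.53 (adjusted p = 0.0331, and 0.0557 without the first PLC/PRF/5 control, limma). For ITIH3, SERPIND1, ITIH1 and C8B the SNU-449 arrays are at or near the floor, so the called difference is the fall in PLC/PRF/5 against a gene that could not be seen to fall. The effect of TGFβ differed for 4 of 27 members (background 8.59%). For SERPINA3, which rose more in PLC/PRF/5, the difference was -0.72 (adjusted p = 0.00273, limma). For C5 the difference was 0.77 and for C3 -0.50 (adjusted p = 0.0217 and 0.0257, limma). For SAA4, at the floor in SNU-449, it was 0.96. CFI was not called, with a difference of 0.66 for galunisertib (95% interval 0.16 to 1.15, adjusted p = 0.12, limma).

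Other complement genes, from a list of 33, had 12 members tested in PLC/PRF/5 and 15 in SNU-449. Their counts stand beside the shares of all genes called, given above for each comparison and repeated here by direction. In SNU-449, 0 rose and 4 fell with TGFβ (background 5.57% and 4.66%), 3 rose and 0 fell with galunisertib alone (5.13% and 2.02%), and 4 rose and 0 fell when it was added to TGFβ (9.61% and 7.27%). The collectin COLEC11 changed by -1.08 (adjusted p = 0.0122, limma) with TGFβ and by 1.33 (adjusted p = 0.00255, limma) with galunisertib added, the same signs as CFI. Of the whole list, 1 rose and 3 fell with TGFβ in PLC/PRF/5 (background 6.26% and 7.09%). With galunisertib alone 0 were called there (limma, background 3.56% and 1.71%), and 1 had an unadjusted p below 0.05, beside 3887 of all 16863 genes. When it was added to TGFβ, 5 rose and 2 fell (25.6% and 13.3%). The same background shares apply to the lists that follow. VTN, vitronectin, which also restrains the attack complex, changed by 0.55 (adjusted p = 0.00344, limma) with TGFβ and by -1.17 (adjusted p = 1.1e-05, limma) with galunisertib added. CPN1, a carboxypeptidase that inactivates anaphylatoxins, changed by -0.91 (adjusted p = 8.6e-05, limma) and 0.77 (adjusted p = 8.8e-05, limma). C8G, the third C8 subunit, changed by -0.64 (adjusted p = 0.00128, limma) and 0.60 (adjusted p = 5.9e-04, limma).

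Of 18 further genes that rise in the acute phase, 14 were tested in PLC/PRF/5 and 12 in SNU-449. In SNU-449, 0 rose and 2 fell with TGFβ, 3 rose and 0 fell with galunisertib alone, and 4 rose and 0 fell when it was added to TGFβ. PTX3, a pentraxin that binds microbes, changed by -1.41 (adjusted p = 2.0e-04, limma) and 2.01 (adjusted p = 1.3e-05, limma). FGL1, fibrinogen-like 1, changed by -0.83 (adjusted p = 0.00469, limma) and 1.10 (adjusted p = 5.3e-04, limma). In PLC/PRF/5, 0 rose and 2 fell with TGFβ, 2 rose and 0 fell with galunisertib alone, and 7 rose and 0 fell when it was added to TGFβ (background 25.6% and 13.3%), among them SOD2 by 0.98 (adjusted p = 1.6e-05, limma) and LRG1 by 0.71 (adjusted p = 1.2e-04, limma). FGA, the fibrinogen α chain, changed by -0.55 (adjusted p = 0.0135, limma) with TGFβ.

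Negative reactants, whose output falls in the acute phase, were also followed. Of 11, 4 were tested in SNU-449, where only RBP4 was called, which changed by -0.74 (adjusted p = 0.00316, limma) with TGFβ, by 0.93 (adjusted p = 0.00198, limma) with galunisertib alone and by 0.95 (adjusted p = 3.9e-04, limma) when it was added to TGFβ. Of the 11, 8 were tested in PLC/PRF/5, 0 rose and 3 fell with TGFβ (background 6.26% and 7.09%), and these were ALB by -0.94 (adjusted p = 0.00256, limma), AHSG by -0.86 (adjusted p = 0.0267, limma) and APOA2 by -0.84 (adjusted p = 9.2e-04, limma). With galunisertib alone 0 rose and 3 fell (background 3.56% and 1.71%), among them ALB by -0.97 (adjusted p = 0.0065, limma) and TTR by -0.69 (adjusted p = 0.00566, limma). With galunisertib added to TGFβ, 4 rose and 1 fell (background 25.6% and 13.3%), led by AHSG at 1.39 (adjusted p = 7.5e-04, limma). Thus in PLC/PRF/5 FGA, a positive reactant, and ALB, a negative one, both fell with TGFβ.

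The signalling genes of the acute phase, a list of 36, had 28 members tested in PLC/PRF/5 and 29 in SNU-449. With TGFβ, 5 rose and 2 fell in PLC/PRF/5 (background 6.26% and 7.09%) and 4 rose and 3 fell in SNU-449 (5.57% and 4.66%). With galunisertib alone the counts were 6 and 1 in PLC/PRF/5 and 8 and 1 in SNU-449, and with galunisertib added to TGFβ they were 10 and 8, and 6 and 3. IL6R, the receptor chain for IL-6, changed by -0.76 (adjusted p = 0.00263, limma) with TGFβ in SNU-449 and by 1.07 (adjusted p = 1.9e-04, limma) when galunisertib was added. In SNU-449 the liver transcription factor ONECUT1 changed by -1.61 (adjusted p = 3.3e-04, limma), and by 2.19 (adjusted p = 2.7e-05, limma) when galunisertib was added. SOCS1, a brake on JAK signalling, changed in PLC/PRF/5 by 1.21 (adjusted p = 0.0312, limma) with TGFβ and -1.27 (adjusted p = 0.00976, limma) with galunisertib added. SOCS3, the feedback inhibitor of IL-6 signalling, rose when galunisertib was added to TGFβ in PLC/PRF/5, by 1.01 (adjusted p = 4.3e-04, limma). LIF, a cytokine of the IL-6 family, changed by -0.69 (adjusted p = 0.00324, limma) with galunisertib alone in SNU-449 and by 1.16 (adjusted p = 0.00343, limma) in PLC/PRF/5, and the difference between the lines was -1.85 (adjusted p = 4.8e-06, limma).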

How the data were processed

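Total RNA of 24 cultures was hybridised to one-colour Agilent human arrays, and the authors deposited scanner files of Agilent Feature Extraction 10.7.3.1 whose processed signal is a background-subtracted intensity. A further table of log2 values that the authors deposited, normalized between arrays and centred per probe with column medians of -0.06 to 0.06, had differences between arrays whose correlation with those of the scanner values was 0.999, and whose slope was 1.00, over 19246 probes. It was used here only as an alternative, and its exact steps are not given in the sources used here.

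Control spots and spots marked as outliers (111 to 216 per array) were left out, and no spot was saturated. Spot intensities were scaled to the 75th percentile of all spots on the same array, values under a floor of 5.70% (the weakest signal that passed the background call, as a median over arrays) were set to it, and log2 was taken. Probes were named through the RefSeq accession in the files (31104 of 58201 probes) or as LNCipedia transcripts (10719), and 16378 stayed unnamed. A gene was represented by its tested probe with the highest mean. Probes well above background on all 3 arrays of at least 1 group in the fit were tested with limma 3.58.1 in R 4.3.3, per line over 12 arrays (16863 genes in PLC/PRF/5, 16225 in SNU-449) and over 24 arrays for comparisons of the lines (18103 genes). P-values were adjusted by the Benjamini-Hochberg method over all genes, and calls used an adjusted p below 0.05. The test in the methods is a t-test, with limits of a 2-fold change and P below 0.001, which were applied to the limma values as a second rule. The fits were tested on simulated data.

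The cultures are described as independent, and the replicate number is also the slide. Same-numbered arrays deviated together in all 3 pairs for TGFβ against control, with correlations from 0.13 to 0.22 (SNU-449) and from 0.17 to 0.30 (PLC/PRF/5). Every pair was over 0.1, the limit set for a pairing, in no other comparison. The nearest was galunisertib added to TGFβ in SNU-449, whose lowest pair was 0.0995. The calls and p-values reported come from fits without a pairing, also for TGFβ against control, except where the replicate block is named. Alternatives were 4 scalings, normexp with an offset of 50 on the median spot signals (mean signals were not used here), other floors, filters and probe rules, the methods' t-test without its variance model, fits on the compared groups alone, the replicate block, each replicate number left out, and, added after seeing the data, the fits without the first PLC/PRF/5 control, which has the lowest 75th percentile. The number of arrays limits the precision.

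The members and gene lists were chosen with earlier results of these data known. Values per array are given for members called in a treatment, interaction or line comparison and for the 10 with the largest difference between untreated lines, and at most the 4 largest called changes are named per other list and comparison. Promoters were read from RefSeq sequences of GRCh38.p14, in which 27 of the 39 listed genes matched. Some genes of the other lists count in their totals and are not reported here by name.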

Additional observations from a re-analysis of the deposited data

Results flagged for a closer look

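For 10 member effects, that of a single agent differed between the lines by a test of the difference itself (limma over all 24 arrays, adjusted p below 0.05), each given as the effect in SNU-449 minus that in PLC/PRF/5 on the log2 scale. For galunisertib the differences were 1.79 for ITIH3, 1.04 for SERPIND1, 0.95 for ITIH1 and 0.77 for C8B, and these 4 restate the fall in PLC/PRF/5, since SNU-449 arrays lay at or near the floor and could not be seen to fall. The same test gave -0.94 for SERPINA3 and 0.53 for C1S, both measured in each line. The other probes of SERPINA3 changed in opposite directions with galunisertib in PLC/PRF/5, so the size of its difference depends on the probe. For TGFβ the differences were 0.96 for SAA4, which is at the floor in SNU-449 and likewise restates the change in PLC/PRF/5, 0.77 for C5, -0.72 for SERPINA3 and -0.50 for C3.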

How the results depend on the processing

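Over 1354 values of the 84 member results called, 1042 stayed called under an alternative, 312 did not and 0 changed sign. Of 24 results between the untreated lines 22 stayed called in every alternative run, and of 60 treatment results 11 did, namely CFI, CP, C5, SAA4, ITIH1, ITIH3, SERPIND1, SERPING1 and SERPINA3 for galunisertib added to TGFβ in PLC/PRF/5, CFI for the same in SNU-449, and SERPINA3 for TGFβ in PLC/PRF/5. The cause of the changes below was not tested. Array median scaling moved the median difference of all genes by -0.34 to 0.17, and no scaling by -0.18 to 0.25.

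The counts of members called are given first as reported. Between untreated lines the count of 24 became 11 for probes above background on all arrays, fewer genes being tested there. For TGFβ against control in SNU-449 the count was 6, and 0 with array median scaling, 2 without scaling, 3 with normexp, 3 without the filter, 1 by the methods' t-test and 0 to 1 with a replicate number left out. For galunisertib in SNU-449 it was 3, and 1 with array median scaling, without scaling or with only the compared groups in the fit, 0 by the t-test and 0 to 1 with a number left out. With TGFβ present, galunisertib in SNU-449 gave 8, and 2 with array median scaling, 3 without scaling, 5 with normexp, 4 without the filter, 5 by the t-test and 1 to 3 with a number left out. TGFβ in the presence of galunisertib gave 1 in SNU-449, and 0 with array median scaling, normexp, the t-test, only the compared groups, and any number left out. The interaction in SNU-449 gave 0 in every alternative run.

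For TGFβ in PLC/PRF/5 the count was 5, and 2 with array median scaling, 8 with quantile normalization, 1 without scaling, 3 without the filter, 3 by the t-test, 2 with any number left out and 3 without the first control. For galunisertib it was 4, and 1 with array median scaling, without scaling or by the t-test, and 0 with any number left out. For galunisertib added to TGFβ it was 16, and 9 without scaling and 10 to 13 with a number left out. For TGFβ added to galunisertib it was 1, and 2 with the percentile over bright probes, quantile normalization or probes above background on all arrays, 4 with normexp, and 0 with array median scaling, no scaling, no filter, the t-test, only the compared groups or any number left out. For the interaction it was 6, and 1 with array median scaling, 0 without scaling and 0 to 2 with a number left out. The difference between lines in the effect of galunisertib gave 6, and 1 with array median scaling, 2 without scaling, with probes above background on all arrays or with the authors' values, and 2 to 5 with a number left out. That of TGFβ gave 4, and 1 with array median scaling, 0 without scaling, 2 with normexp or the authors' values and 1 to 2 with a number left out. The methods' t-test was not run for interactions and line differences.

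With the replicate block the counts were 4 for TGFβ in SNU-449, 7 for galunisertib with TGFβ present in SNU-449 and 7 for the interaction in PLC/PRF/5, and otherwise as reported, except that for TGFβ in PLC/PRF/5 the 5 calls were 3 higher and 2 lower in place of 2 and 3. Beyond the calls named beside the results, the block ended no other call, and it added SERPIND1 for TGFβ in PLC/PRF/5, CFI for the interaction in PLC/PRF/5 and, in SNU-449, CD55 for galunisertib added to TGFβ. The interaction of A2M had an adjusted p of 0.0551 without the first PLC/PRF/5 control (limma). It was lost in 12 of 16 alternatives, among them all 4 scalings, the authors' values and each replicate number left out. The rise of A2M with galunisertib added to TGFβ in PLC/PRF/5 was lost in 7 of 16. A gene near the floor, such as CP in SNU-449 or ITIH3 and HPX in PLC/PRF/5, has only a bound in its dim group.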
